A study of Arabidopsis thaliana with 12 samples.

Results

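Transcript levels of 8 defence genes were followed in 12 RNA-seq libraries of Arabidopsis thaliana: the pathogenesis-related genes PR1, BGL2 (PR2) and PR5, the NPR1-interacting genes NIMIN-1 and NIMIN-2, and the pipecolate-pathway genes ALD1, FMO1 and SARD4. The genes were taken by locus identifier, and each of the 8 has a row among the 34218 genes of the deposited table. The plants were 14-day-old seedlings, and the labels give leaves as the tissue. Of the 4 groups, the first was a line carrying TaF5H1, a wheat gene driven by its own promoter, kept for 6 h in 200 mM NaCl. The second was that line kept for 6 h in nutrient solution. The third was wild-type Col-0 in the same salt treatment, and the fourth was wild-type Col-0 in nutrient solution. TaF5H1 is a wheat ferulate 5-hydroxylase, an enzyme of the lignin and sinapate branch of phenylpropanoid metabolism. Each group had 3 libraries, called biological replicates in the series description. The labels do not say how many independent transformants the line represents, and the transgene itself was not analysed here.

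Salicylic acid (SA) is the plant hormone that leads defence against biotrophic pathogens. It is perceived by NPR1 and related receptors, and NPR1 acts with TGA transcription factors at promoters such as that of PR1. PR1, BGL2 (a beta-1,3-glucanase) and PR5 (a thaumatin-like protein) are secreted proteins long used as readouts of SA signalling. The NIMIN proteins bind NPR1 and restrain PR1 expression, and NIMIN-1 and NIMIN-2 are themselves SA-induced. In the parallel pipecolate pathway the aminotransferase ALD1 acts on lysine, SARD4 reduces the product to pipecolate, and the monooxygenase FMO1 converts pipecolate to N-hydroxypipecolate, a signal of systemic acquired resistance.

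The windows of 300 bases upstream of the annotated starts of 7 of the genes were read from the TAIR10.1 assembly and searched on both strands for TTGAC, the core of the W box bound by WRKY factors, and TGACG, the core bound by TGA factors. The windows of 3 genes are shown because they span the range found, from no match in NIMIN-1 to matches of both kinds in NIMIN-2. They are BGL2 (chr3:21189968-21190267, minus strand), NIMIN-1 (chr1:498540-498839, minus strand) and NIMIN-2 (chr3:9471040-9471339, minus strand). Each is written 5′ to 3′ on the gene's strand, and capitals mark the matches on either strand.
BGL2: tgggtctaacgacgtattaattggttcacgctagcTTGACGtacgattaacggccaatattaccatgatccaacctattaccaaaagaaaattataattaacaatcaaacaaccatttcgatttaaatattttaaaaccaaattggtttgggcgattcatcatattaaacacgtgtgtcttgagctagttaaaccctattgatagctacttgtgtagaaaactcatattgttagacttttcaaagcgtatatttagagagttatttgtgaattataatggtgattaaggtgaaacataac
NIMIN-1: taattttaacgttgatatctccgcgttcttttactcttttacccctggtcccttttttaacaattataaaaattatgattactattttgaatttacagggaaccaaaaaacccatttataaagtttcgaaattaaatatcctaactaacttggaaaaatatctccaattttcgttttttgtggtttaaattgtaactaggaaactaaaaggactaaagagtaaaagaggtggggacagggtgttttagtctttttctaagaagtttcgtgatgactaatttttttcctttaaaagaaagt
NIMIN-2: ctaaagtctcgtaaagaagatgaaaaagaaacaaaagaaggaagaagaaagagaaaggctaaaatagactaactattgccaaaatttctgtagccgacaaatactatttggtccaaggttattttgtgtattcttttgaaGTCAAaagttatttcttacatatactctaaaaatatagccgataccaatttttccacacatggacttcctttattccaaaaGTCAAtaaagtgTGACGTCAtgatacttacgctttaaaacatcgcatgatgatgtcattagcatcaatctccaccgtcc
Positions are counted back from the gene start. In BGL2 the 2 cores overlapped, sharing the letters TGAC, from position -265 to -260. The NIMIN-2 window held 2 reverse-strand TTGAC matches and a palindrome made of 2 overlapping TGACG matches on opposite strands, from position -67 to -60. Of the 7 windows, 4 held TTGAC and 2 held TGACG, against 50.4% and 21.3% of the windows of 27437 protein-coding genes. The windows of NIMIN-1, ALD1 and FMO1 held neither. A match describes letters in the window and is not evidence of binding. The SARD4 window lies inside its upstream neighbour AT5G52800 and is not shown as sequence.

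**Figure D1:**
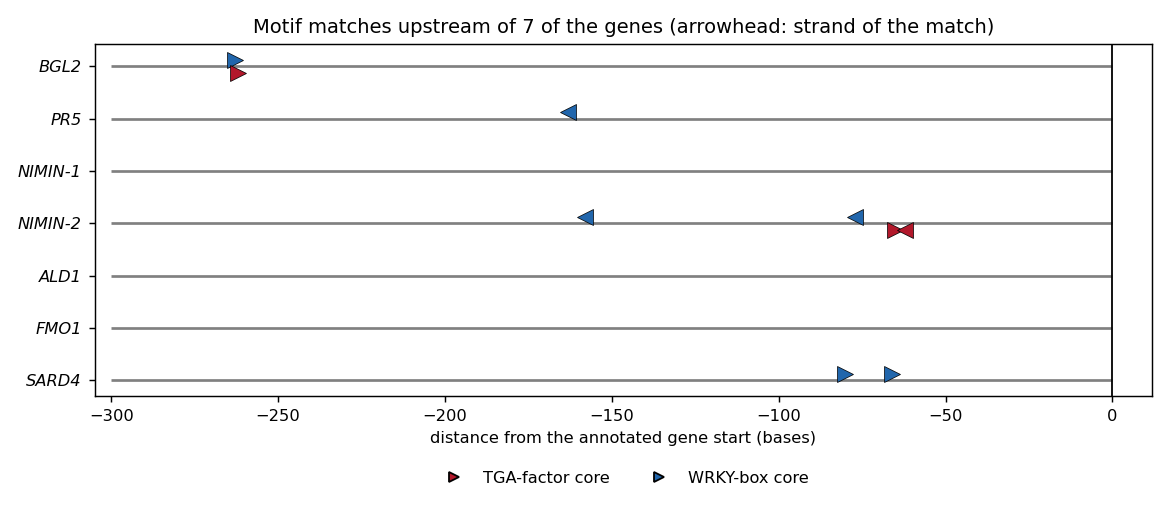
Positions of TTGAC (WRKY-box core, blue) and TGACG (TGA-factor core, red) in the 300 bases before the annotated starts of 7 genes; the x axis is distance in bases and the arrowhead gives the strand. Matches of both kinds appear in BGL2 and NIMIN-2, and NIMIN-1, ALD1 and FMO1 have none.

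Library totals lay between 17173618 and 21651124 counts. Within the salt-treated line, replicate 1 stood apart, with correlations over genes of log2(FPKM + 1) of 0.932 and 0.937 with its fellows, against 0.993 between replicates 2 and 3. FPKM, the deposited unit, scales each count to the length of the exons and to the size of the library. The 5 leaf mesophyll markers (RBCS1A, LHCB1.1, LHCB2.1, PSAN and RCA) were detected in every library. Their summed level was 519 to 2320 FPKM in the salt-treated line, 13100 to 14300 in the untreated line, 4120 to 4370 in salt-treated wild type and 15900 to 19300 in untreated wild type. Among 7 root markers, 6 stayed under 1 FPKM in every library; the exception was PYK10. The root sum was 27.5 to 54.2 FPKM in the salt-treated line, 2.7 to 4.96 in the untreated line, 7.61 to 13.3 in salt-treated wild type and 1.17 to 3.31 in untreated wild type. The 4 guard cell markers summed to between 17.1 and 25.7 FPKM in all groups, but single markers moved in opposite directions with salt. MYB60 averaged 0.617 FPKM in the salt-treated line and 5.91 in the untreated line, and 0.887 with salt and 3.86 without in wild type. KAT1 averaged 12.9 FPKM with salt and 6.84 without in the line, and 8.21 and 6.1 in wild type. The senescence markers SAG12 and SAG13 summed to 743 to 2200 FPKM in the salt-treated line, 25.6 to 61.6 in the untreated line, 316 to 460 in salt-treated wild type and 2.95 to 4.74 in untreated wild type. SAG13 made up nearly all of these sums. SAG12 averaged 11.7 FPKM in the salt-treated line, 1.5 in the untreated line, 0.11 in salt-treated wild type and 0 in untreated wild type. The part of these marker differences in the results below was not tested. In bulk tissue, fewer cells of a type and less RNA per cell cannot be told apart.

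PR1 (AT2G14610, TAIR10 chromosome 2, 6241640 to 6242541) stood at 37.1, 279.8 and 317 FPKM in the salt-treated line and 143, 126 and 19.3 FPKM in the untreated line. It stood at 2.51, 18.5 and 0.47 FPKM in salt-treated wild type, and 0.47, 0.40 and 0.81 FPKM in untreated wild type. All 6 libraries of the line lay above all 6 of wild type. The salt and untreated libraries overlapped within each genotype. The wild-type values rest on few reads: the 3 untreated wild-type libraries held 30 PR1 counts together, and in salt-treated wild type replicate 2 gave 352 of the group's 407 counts.

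BGL2 (AT3G57260, chromosome 3, 21188397 to 21189967) was the most abundant of the 8 genes by FPKM in each group. Its levels were 961, 2131 and 1773 FPKM in the salt-treated line, 630, 394 and 298 FPKM in the untreated line, 465, 716 and 325 FPKM in salt-treated wild type, and 50.7, 49.0 and 59.8 FPKM in untreated wild type. The salt-treated line lay above the other 3 groups and untreated wild type below them, while the untreated line and salt-treated wild type overlapped. PR5 (AT1G75040, chromosome 1, 28177670 to 28179022) had 373, 1294 and 1101 FPKM in the salt-treated line, 478, 261 and 132 FPKM in the untreated line, 94.8, 215 and 88.6 FPKM in salt-treated wild type, and 33.3, 27.1 and 29.1 FPKM in untreated wild type. Untreated wild type was again below every other library, and each neighbouring pair among the other 3 groups overlapped.

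The NIMIN genes were ordered differently. NIMIN-1 (AT1G02450, chromosome 1, 497917 to 498539) had 5.05, 46.4 and 40.9 FPKM in the salt-treated line, 12.6, 20.3 and 12.4 FPKM in the untreated line, 1.55, 2.96 and 2.15 FPKM in salt-treated wild type, and 23.0, 23.5 and 19.9 FPKM in untreated wild type. Salt-treated wild type was the lowest group, below every other library, and untreated wild type lay within the spread of the line. NIMIN-2 (AT3G25882, chromosome 3, 9470357 to 9471039) had 9.55, 101 and 90.2 FPKM in the salt-treated line, 43.6, 49.9 and 23.0 FPKM in the untreated line, 4.59, 6.02 and 3.45 FPKM in salt-treated wild type, and 14.1, 12.1 and 11.04 FPKM in untreated wild type. Salt-treated wild type was again lowest, and replicate 1 of the salt-treated line, at 9.55 FPKM, fell below untreated wild type. The ratio of NIMIN-1 to NIMIN-2 levels was 1.62, 1.95 and 1.8 in untreated wild type and lay between 0.29 and 0.623 in the 9 other libraries.

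Of the pipecolate genes, ALD1 (AT2G13810, chromosome 2, 5768417 to 5772266) had 6.71, 18.8 and 23.3 FPKM in the salt-treated line, 6.46, 2.60 and 1.75 FPKM in the untreated line, 1.1, 2.26 and 1.60 FPKM in salt-treated wild type, and 0.24, 0.07 and 0.03 FPKM in untreated wild type. FMO1 (AT1G19250, chromosome 1, 6650476 to 6653195) had 3.65, 21.8 and 26.4 FPKM in the salt-treated line, 3.62, 2.11 and 0.57 FPKM in the untreated line, 0.33, 1.09 and 0.59 FPKM in salt-treated wild type, and 0.03, 0.19 and 0.08 FPKM in untreated wild type. For both genes the salt-treated line was above all other groups and untreated wild type below them, and the 2 groups between overlapped. The untreated wild-type libraries together held 10 counts of ALD1 and 11 of FMO1, few for a fold change. SARD4 (AT5G52810, chromosome 5, 21399331 to 21400686) had 33.0, 86.4 and 83.1 FPKM in the salt-treated line, 34.8, 28.9 and 24.8 FPKM in the untreated line, 15.6, 22.5 and 18.7 FPKM in salt-treated wild type, and 32.1, 27.9 and 32.3 FPKM in untreated wild type. Like NIMIN-1 it was lowest in salt-treated wild type, and the untreated groups overlapped. SARD4 overlaps AT5G52800 on the same strand, so its counts may include reads of that neighbour; the other 7 genes overlap no annotated gene.

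**Figure D2:**
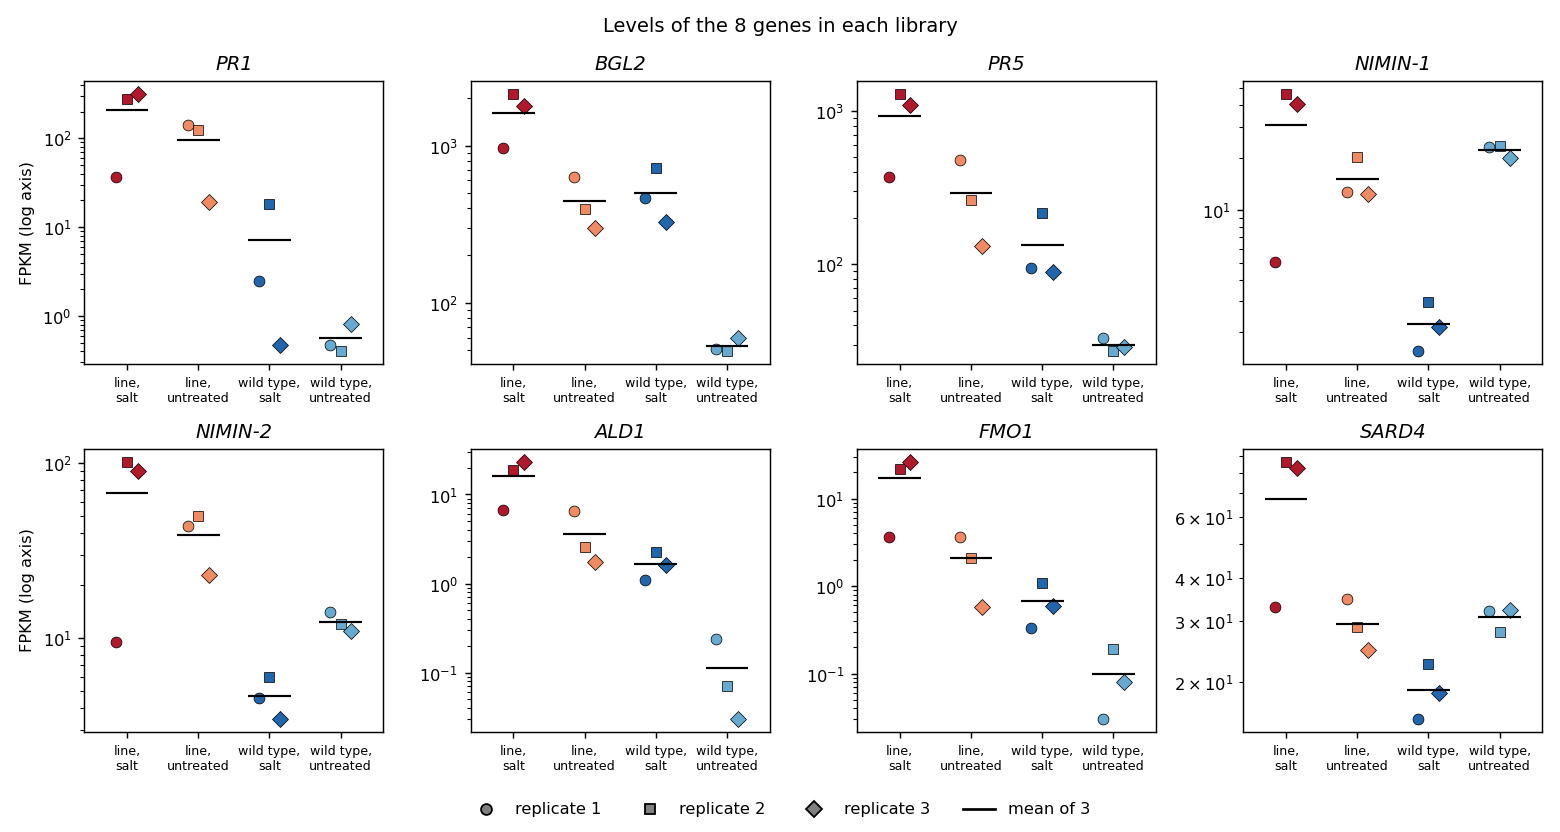
FPKM of the 8 genes in each library on log axes, by group; marker shape gives the replicate and bars the mean of 3. PR1 is above 19 FPKM in every library of the line and under 19 in every wild-type library, while the means of NIMIN-1, NIMIN-2 and SARD4 are lowest in salt-treated wild type.

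All 8 genes passed the filter of a mean of at least 1 FPKM over the 12 libraries, among 17038 that did. PR1, ALD1 and FMO1 averaged under 1 FPKM in untreated wild type (0.56, 0.113 and 0.10) and passed through the groups where they were high, so counts of calls over the 8 genes are given as description. Below, log2 fold changes carry their standard error, n is 3 libraries a group, and a gene was called at an edgeR quasi-likelihood adjusted p under 0.05, adjusted over all tested genes.

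Without salt, the line had higher transcript levels than wild type for PR1, BGL2, PR5, ALD1 and FMO1, and NIMIN-1, NIMIN-2 and SARD4 were not called. PR1 averaged 96.0 FPKM in the line and 0.56 FPKM in wild type (log2 fold change 7.30 ± 1.43, edgeR adjusted p = 0.0071). ALD1 was higher in the line by 4.91 ± 0.80 (edgeR adjusted p = 0.0028), FMO1 by 4.29 ± 1.05 (0.02), PR5 by 3.19 ± 0.56 (0.004) and BGL2 by 2.96 ± 0.39 (0.00092). NIMIN-2 was above wild type in all 3 libraries, at 1.55 ± 0.61 (edgeR adjusted p = 0.11). The other uncalled values were NIMIN-1 at -0.64 ± 0.54 (0.46) and SARD4 at -0.15 ± 0.29 (0.76). So 5 of the 8 were called up and 0 down, where 13.9% of all tested genes were called, 7.34% up and 6.58% down. The libraries of the line lay wholly above those of wild type for 6 of the 8 genes and below for 0, against 26.7% and 17.3% of tested genes. Of the calls over all genes 52.7% were up, and 66.4% when libraries were scaled by their totals alone. Without replicate 1 of the salt-treated line, which enters through the shared spread, NIMIN-2 was called up at 1.56 (edgeR adjusted p = 0.00064) and NIMIN-1 down at -0.63 (0.035), in a fit that called 15% of tested genes up and 15% down. With only the 6 untreated libraries in the fit, NIMIN-2 was called up at 1.56 (edgeR adjusted p = 0.0025) and NIMIN-1 down at -0.63 (0.049). That fit called 3992 tested genes, against 2371 in the main fit. DESeq2, with 3407 genes called, called NIMIN-2 up at 1.54 (DESeq2 adjusted p = 0.044). FMO1 lost its call without replicate 1 or 2 of the line or replicate 1 or 3 of wild type (edgeR adjusted p = 0.054 to 0.079).

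Under salt all 8 genes were higher in the line than in wild type, and for each of them the 3 line libraries lay above the 3 wild-type libraries. PR1 averaged 211 ± 152 FPKM in the line and 7.15 ± 9.85 FPKM in wild type (SD; log2 fold change 4.81 ± 1.16, edgeR adjusted p = 0.011). The NIMIN genes were higher in the line by 3.74 ± 0.64 (NIMIN-1, edgeR adjusted p = 0.0033) and 3.78 ± 0.67 (NIMIN-2, 0.0036). FMO1 was higher by 4.63 ± 0.80 (edgeR adjusted p = 0.0034), ALD1 by 3.25 ± 0.57 (0.0035) and SARD4 by 1.79 ± 0.29 (0.0031). PR5 was higher by 2.74 ± 0.55 (0.0055), and BGL2 had the smallest difference at 1.65 ± 0.37 (0.0084). All 8 were called up, where 34.6% of all tested genes were called, 15.6% up and 19% down. Over all tested genes the line libraries lay wholly above wild type for 21.2% and wholly below for 24%. These calls were kept in each of the 12 fits that left out 1 library, but PR1 was not called when only the 6 salt-treated libraries entered the fit (4.87 ± 1.36, edgeR adjusted p = 0.059). The PR1 value was 7.08 when replicate 2 of salt-treated wild type was left out.

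In the line, salt raised BGL2, ALD1, FMO1, PR5 and SARD4. FMO1 rose by 3.28 ± 0.72 (edgeR adjusted p = 0.0019), ALD1 by 2.41 ± 0.54 (0.002), BGL2 by 2.13 ± 0.38 (0.00041), PR5 by 1.91 ± 0.53 (0.0076) and SARD4 by 1.44 ± 0.29 (0.001). PR1 at 1.38 ± 0.99 (edgeR adjusted p = 0.24), NIMIN-1 at 1.27 ± 0.55 (0.059) and NIMIN-2 at 1.03 ± 0.59 (0.14) were not called. NIMIN-1 was called up by DESeq2 (1.32, DESeq2 adjusted p = 0.027) and, just under the threshold, with median-of-ratios scaling (1.33, edgeR adjusted p = 0.0497). Those settings called 5719 and 5585 tested genes up, against 5346 in the main fit. The 5 called up compare with 64.8% of tested genes called, 31.4% up and 33.5% down. Salt-treated libraries lay wholly above untreated ones for 3 of the 8 genes (BGL2, ALD1 and FMO1) and below for 0, against 21.6% and 43.3% of tested genes. Of the calls over all genes 48.4% were up, and 34.9% with library totals alone. Replicate 1 of the salt-treated line was the lowest of its group for all 8 genes. Without it NIMIN-1 was called at 1.80 (edgeR adjusted p = 8.9e-06) and NIMIN-2 at 1.57 (0.00012), while PR1 reached 1.9 (0.052); that fit called 34.7% of tested genes up and 36.5% down.

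In wild type, salt raised BGL2, ALD1, PR5, PR1 and FMO1 and lowered NIMIN-1. BGL2 rose by 3.45 ± 0.40 (edgeR adjusted p = 2.4e-05), ALD1 by 4.08 ± 0.83 (0.0015) and PR5 by 2.36 ± 0.54 (0.0032), while NIMIN-1 fell by 3.11 ± 0.63 on the log2 scale (0.0015), 8.62-fold lower. PR1 was called up at 3.87 ± 1.40 (edgeR adjusted p = 0.035) and FMO1 at 2.94 ± 1.16 (0.0499), but neither call was stable to the method or to leaving out libraries. Limma on log2(FPKM + 1) called neither PR1 (1.58, limma adjusted p = 0.21) nor FMO1 (0.58, 0.41). Both also lost their calls with replicate number as a block (edgeR adjusted p = 0.073 and 0.065). FMO1 lost its call with median-of-ratios scaling (edgeR adjusted p = 0.051), library totals alone (0.064) and a filter of mean FPKM 5 (0.06). Without replicate 2 of salt-treated wild type the PR1 value was 1.64 and was not called (edgeR adjusted p = 0.34), and PR1 also lost its call without any 1 of the untreated wild-type libraries (0.071 to 0.095). FMO1 was called in 6 of 12 such fits; its call ended without replicate 2 of the untreated line, replicate 2 or 3 of salt-treated wild type, or any untreated wild-type library (edgeR adjusted p = 0.064 to 0.16). NIMIN-2 at -1.19 ± 0.65 (edgeR adjusted p = 0.14) and SARD4 at -0.50 ± 0.29 (0.16) were not called, although their salt-treated libraries lay below the untreated ones; without replicate 1 of the salt-treated line they were called down at -1.16 (0.0031) and -0.47 (0.016), in a fit that called 31% of tested genes down. The 5 called up and 1 called down compare with 53.8% of tested genes called, 27.1% up and 26.7% down. Salt-treated libraries lay wholly above untreated ones for 4 of the 8 genes and below for 3, against 27.4% and 45.6% of tested genes. Of all calls 50.4% were up, and 36.9% with library totals alone.

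The test of the difference between the salt responses called NIMIN-1 and SARD4. The response of NIMIN-1 was 4.38 ± 0.83 higher in the line (edgeR adjusted p = 0.02) and that of SARD4 1.94 ± 0.41 higher (0.025), the line's response being positive and wild type's negative. NIMIN-2 had 2.23 ± 0.88 (edgeR adjusted p = 0.13) and was called only without replicate 1 of the salt-treated line, at 2.74 (0.00013), or by DESeq2. Without that library the interaction was called up for 13.8% of tested genes and down for 23%. PR1, BGL2, PR5, ALD1 and FMO1 were not called, at -2.49 ± 1.74, -1.32 ± 0.51, -0.45 ± 0.73, -1.66 ± 1.04 and 0.34 ± 1.71. A missed threshold does not show equal responses. Over all genes 5.88% were called, 2.92% up and 2.95% down. With library totals alone 32.8% of the calls were up, against 49.8%. NIMIN-1 was called in 11 of 12 fits that left out a library, and lost its call without replicate 1 of salt-treated wild type (4.18, edgeR adjusted p = 0.065). SARD4 was called in 3 of 12, those without replicate 1 of the salt-treated line or replicates 1 or 3 of the untreated line, and had an edgeR adjusted p of 0.0501 to 0.076 in the others.

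**Figure D3:**
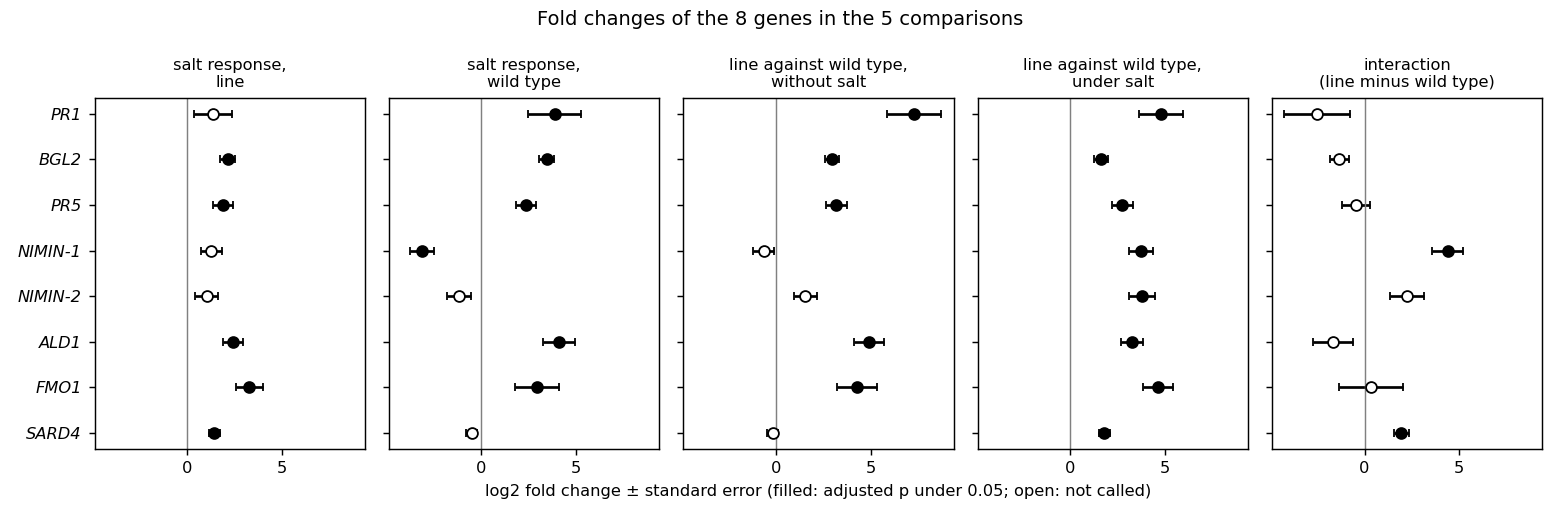
Log2 fold change ± standard error of the 8 genes (rows) in the 5 comparisons (panels); filled points were called at an adjusted p under 0.05. Under salt all 8 are called up in the line against wild type, and the interaction is called for NIMIN-1 at 4.38 and SARD4 at 1.94.

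The 8 genes also varied together between replicates of a group. Replicate 1 of the salt-treated line had the lowest level of its group for 8 of 8 genes, and 45.3% of all tested genes had their lowest value there. Replicate 3 of the untreated line was lowest for 8 of 8 genes (30.7% of tested genes), and replicate 2 of salt-treated wild type was highest for 8 of 8 (29.3%). In untreated wild type the genes were not ordered alike. The mean deviation over the 8 genes from the group mean of log2(FPKM + 1) was -1.42 in the first of these libraries, -0.73 in the second and 0.63 in the third. Replicate 1 of the salt-treated line also differed in markers. All 5 leaf mesophyll markers were highest of the group there, summing to 2320 FPKM, against 538 and 519 FPKM in replicates 2 and 3. Both senescence markers were lowest there, with SAG12 at 0.13 FPKM against 14.5 and 20.3, and SAG13 at 743 FPKM against 2186 and 2062. The part of either list in the low levels of the 8 genes was not tested.

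**Figure D4:**
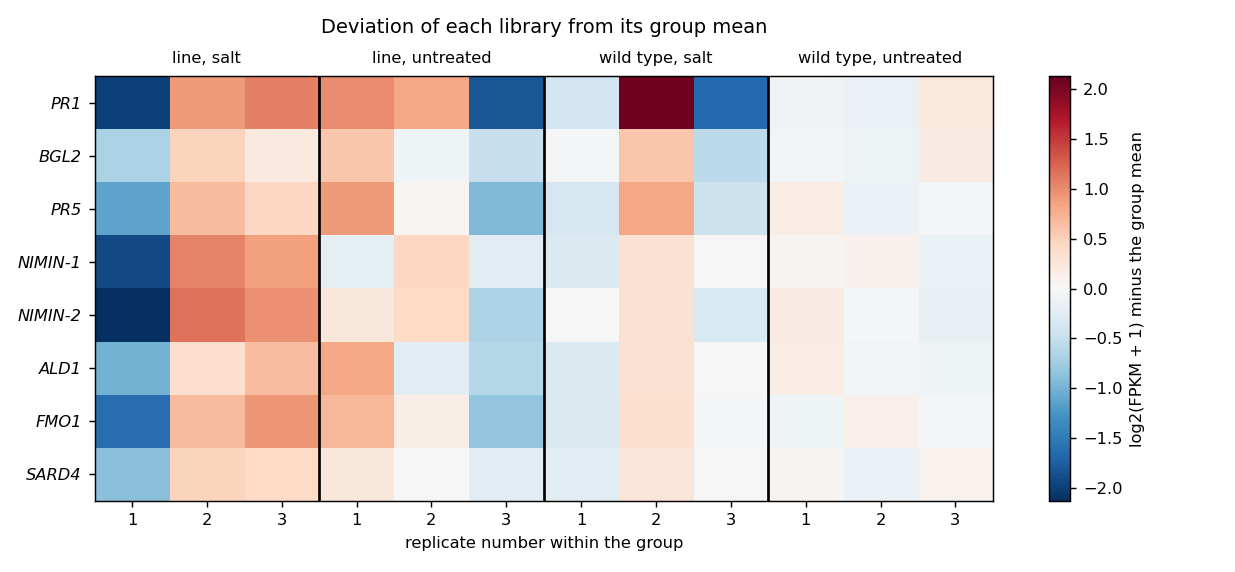
Deviation of each library's log2(FPKM + 1) from its group mean (colour) for the 8 genes (rows) and 12 libraries (columns). Replicate 1 of the salt-treated line and replicate 3 of the untreated line are blue throughout, and replicate 2 of salt-treated wild type is red throughout.

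Over the 12 libraries, PR1, BGL2, PR5, ALD1 and FMO1 correlated with one another at Pearson r of log2(FPKM + 1) between 0.82 and 0.98 over 10 pairs. NIMIN-1, NIMIN-2 and SARD4 correlated at 0.81 to 0.85 over 3 pairs, and between the sets r lay between -0.06 and 0.86. The sets were drawn after the values were seen, and libraries of a group are shared by all pairs. The genes outside the 8 most like PR1 were S3H (r = 0.982), which encodes a salicylate hydroxylase, the WRKY factor WRKY60 (0.982), AT3G15536 (0.978), the receptor-like protein AtRLP41 (0.976) and AT3G60540 (0.976). S3H averaged 46.9 FPKM in the salt-treated line, 27 in the untreated line, 4.59 in salt-treated wild type and 2.07 in untreated wild type. Those most like ALD1 were AIG1 (0.990), AT4G00700 (0.986), AT1G57630 (0.986), the receptor-like kinase CRK12 (0.985) and DMR6 (0.983), another salicylate hydroxylase. AIG1 averaged 35.8 FPKM in the salt-treated line, 5.75 in the untreated line, 2.45 in salt-treated wild type and 0.377 in untreated wild type.

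The other genes of the pathway were read in 7 lists holding 54 genes, whose counts stand beside the shares of all tested genes given above (15.6% called up under salt and 7.34% without). Some listed genes also passed the filter through the groups where they were high, so the list counts too are description. Among them, UGT76B1 and the receptor gene NPR2 were called up in the line without salt. They averaged 0.367 and 0.483 FPKM in untreated wild type. Of the 10 genes of SA synthesis and its activators, 9 were called up in the line under salt (median log2 fold change 1.79, against -0.03 over all tested genes) and 4 without salt (median 0.78). PBS3, which makes the glutamate conjugate that yields SA, averaged 131 FPKM in the line and 22 FPKM in wild type under salt (2.54 ± 0.39, edgeR adjusted p = 0.0026). PAD4, a partner of the immune regulator EDS1, was higher in the line by 1.67 ± 0.25 (edgeR adjusted p = 0.0024). SARD1, a transcription factor that activates SA synthesis, was higher by 2.47 ± 0.41 (0.0031). In the line PAD4 averaged 36.5 FPKM with salt and 49.5 FPKM without (-0.19 ± 0.24, edgeR adjusted p = 0.52). In wild type PAD4 averaged 11.1 FPKM with salt and 29.8 FPKM without. Without salt PBS3 was higher in the line by 2.03 ± 0.40 (edgeR adjusted p = 0.0068) and the transporter gene EDS5 by 1.08 ± 0.18 (0.0032). EPS1, which releases SA from the conjugate made by PBS3, was higher by 0.83 ± 0.14 (0.0037). Without replicate 1 of the salt-treated line 7 of the 10 were called up without salt, while the share of all tested genes called up went to 15%. Salt itself called 6 of these genes up and 0 down in the line, where 31.4% of tested genes were called up and 33.5% down. In wild type it called 4 up and 3 down, near the 27.1% and 26.7% of all tested genes. EPS1 rose in both, by 2.58 ± 0.14 in the line (edgeR adjusted p = 8.6e-08) and 2.64 ± 0.15 in wild type (9.2e-08).

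Of the 11 tested SA receptors, TGA factors and NIMIN-3, 8 were called up and 1 down in the line under salt (median 0.76), and 2 up and 0 down without salt. Under salt TGA5 was higher in the line by 1.04 ± 0.19 (edgeR adjusted p = 0.0036) and TGA3 by 0.91 ± 0.19 (0.0061). TGA3 averaged 44.2 FPKM in the line with salt and 44.4 FPKM without. NIMIN-3, a relative of NIMIN-1 and NIMIN-2, was lower in the line under salt, where both of those genes were higher. It averaged 7.71 FPKM in the line and 17.8 FPKM in wild type under salt (-1.24 ± 0.20, edgeR adjusted p = 0.0031), and its interaction was -1.52 ± 0.28 (0.017), the 1 interaction called in this list and lost when replicate 1 of salt-treated wild type was left out (-1.53, 0.052). When replicate 1 of the salt-treated line was left out, the interaction was called up for 5 and down for 1 of the 11 genes, but calls over all tested genes also went to 6270, against 1001 with it. In wild type salt called 3 of the 11 up and 3 down, against 27.1% and 26.7% of all tested genes. TGA1 rose with salt there by 1.24 ± 0.18 (edgeR adjusted p = 0.00015). NIMIN-3 was lower with salt, at -0.97 ± 0.19 (edgeR adjusted p = 0.0013). The receptor gene NPR4 fell by 2.19 ± 0.45 on the log2 scale (edgeR adjusted p = 0.0015).

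Of the 8 SA-induced genes (WRKY factors and the glutaredoxin GRXC9), 5 were called up in the line under salt (median 2.32). Without salt edgeR called 0, with 3 at an unadjusted p under 0.05. DESeq2 called 2 of the 8 and limma on log2(FPKM + 1) called 1. Those settings also called more of all tested genes, 3407 with DESeq2 and 2921 with limma, against 2371 in the main fit. In the main fit WRKY53 had the smallest adjusted p of the list (0.98 ± 0.31, edgeR adjusted p = 0.054). Without replicate 1 of the salt-treated line 3 were called up, in the fit that called 15% of all tested genes up. WRKY70 averaged 314 FPKM in the line and 53 FPKM in wild type under salt (2.51 ± 0.44, edgeR adjusted p = 0.0036). WRKY54 was higher in the line under salt by 2.70 ± 0.42 (0.0026) and WRKY46 by 2.45 ± 0.51 (0.0064). In the line WRKY54 averaged 27.3 FPKM with salt and 41.4 FPKM without (-0.36 ± 0.38, edgeR adjusted p = 0.43). In wild type salt lowered WRKY54 to 4.05 FPKM, against 31.4 FPKM untreated (-2.75 ± 0.42, edgeR adjusted p = 0.0002), and WRKY38 by 3.07 ± 0.67 on the log2 scale (0.0023). Salt raised WRKY18 there by 1.33 ± 0.17 (edgeR adjusted p = 5.6e-05). In all, 1 of the 8 was called up and 3 down, against 27.1% and 26.7% of all tested genes. The interaction called WRKY54 (2.39 ± 0.56, edgeR adjusted p = 0.035) and WRKY70 (2.49 ± 0.60, 0.038). Neither call was stable. With the replicate block the values were 2.39 ± 0.57 for WRKY54 (edgeR adjusted p = 0.0502) and 2.43 ± 0.58 for WRKY70 (0.0503), and each gene was called in 1 of the 12 fits that left out a library, the one without replicate 1 of the salt-treated line. In that fit salt in the line called 6 of the 8 genes up, against 2 with the library, while the share of all tested genes called up was 34.7%, against 31.4%.

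Of the 7 tested genes that conjugate or break down SA, pipecolate or its precursor, 4 were called up and 1 down in the line under salt, and 3 up without salt. UGT76B1, which glycosylates SA and N-hydroxypipecolate, averaged 49.8 FPKM in the line and 2.05 FPKM in wild type under salt (4.54 ± 0.68, edgeR adjusted p = 0.0024). S3H was higher in the line by 3.61 ± 0.72 without salt (edgeR adjusted p = 0.0076). LKR/SDH, which breaks down lysine, the substrate of ALD1, averaged 220 FPKM with salt and 4.68 FPKM without in the line (5.82 ± 0.29, edgeR adjusted p = 4.6e-08). In wild type it averaged 194 FPKM with salt and 3.29 FPKM without (6.09 ± 0.29, 3.2e-08). BSMT1, which methylates SA, rose with salt by 6.98 ± 0.52 in the line (7.1e-07) and by 6.72 ± 0.52 in wild type (1.2e-06). The neighbouring genes UGT74F1 and UGT74F2 are close relatives, and the value of UGT74F2 (1.64 ± 0.31 under salt, edgeR adjusted p = 0.0042) is uncertain for that reason. Over all libraries UGT74F1 held 98 counts and UGT74F2 53384, and how shared reads were counted is not known.

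Of the 4 systemic resistance companions 2 were tested. The lectin gene LLP1 fell to 10.7 FPKM with salt in wild type, against 158 FPKM untreated (-3.68 ± 0.48, edgeR adjusted p = 6.2e-05), and its interaction was 3.20 ± 0.63 (0.022). That call ended when replicate 3 of the salt-treated line, replicate 2 of the untreated line, replicate 1 of salt-treated wild type or replicate 1 or 3 of untreated wild type was left out (edgeR adjusted p = 0.052 to 0.06). AGD2, an aminotransferase of lysine synthesis related to ALD1, fell in both salt responses, by 0.63 ± 0.17 in the line (0.0071) and 0.69 ± 0.17 in wild type (0.0056). DIR1 had 0 counts in all libraries. Among 7 relatives of PR1, BGL2 and PR5, 5 were under the filter, including the PR1 relative PRB1, which had 1 count in all. BG3, a relative of BGL2, fell with salt in wild type, at 0.927 FPKM against 10.9 FPKM untreated (-3.34 ± 0.30, edgeR adjusted p = 3.6e-06), where BGL2 rose. Of 4 tested jasmonate and ethylene PR genes, 3 were called up in the line under salt and 2 without salt. The hevein-like gene PR4 averaged 41.6 FPKM in the line and 8.02 FPKM in wild type under salt (2.31 ± 0.53, edgeR adjusted p = 0.0091). PDF1.2A was higher in the line by 2.40 ± 0.55 without salt (0.015), and its near copies PDF1.2B and PDF1.2C make the value uncertain.

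**Figure D5:**
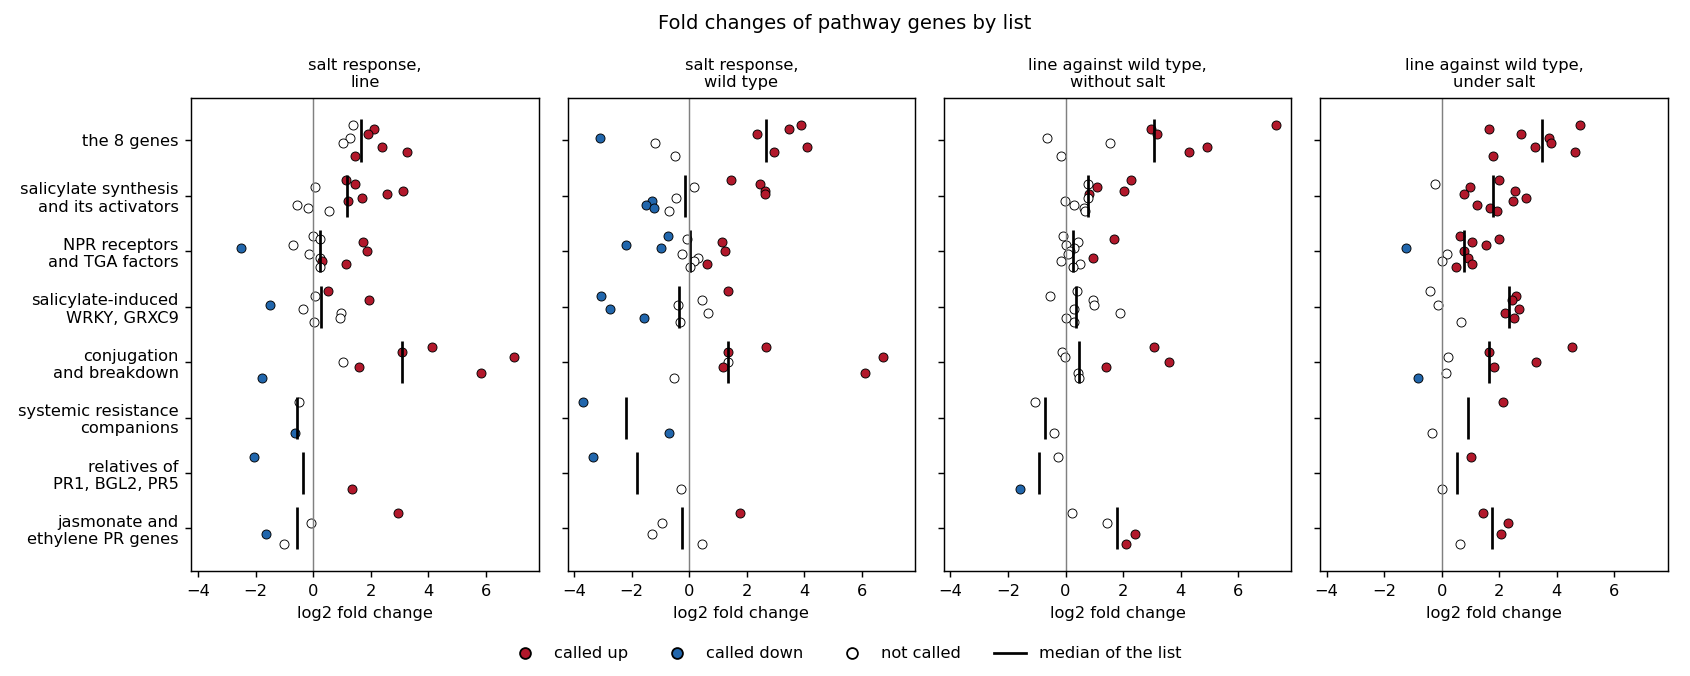
Log2 fold changes of the 8 genes and of the tested genes of the 7 pathway lists (rows) in 4 comparisons (panels); each point is a gene, coloured by its call, and the bar is the list's median. Under salt the line has 8 of 8, 9 of 10 and 8 of 11 genes called up in the upper 3 rows, against 15.6% of all tested genes. The third row also has 1 gene called down. From the fourth row down, 5 of 8, 4 of 7 (with 1 down), 1 of 2, 1 of 2 and 3 of 4 are called up.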

How the data were processed

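RNA was measured in 12 libraries. The authors deposited raw counts per gene, as whole numbers, and FPKM values, which a recalculation from counts, exon length and library totals matched within 0.005. Per the submitters' processing notes, the build was TAIR10 and the tools included HISAT2 2.0.1, cutadapt 1.9.1 and bcl2fastq 2.17.1.14. No source used here states how reads were counted or whether strand was used. Rows not named as a nuclear or organelle locus held at most 0.00629% of a library. Counts were tested with edgeR 4.0.16 in R 4.3.3 (quasi-likelihood F test, TMM scaling, a mean per group over all 12 libraries) for 17038 genes whose FPKM averaged 1 or more, with Benjamini-Hochberg adjustment over all of them; library sizes were the sums of tested genes. Each standard error is the absolute log2 fold change over the square root of F. Alternatives used DESeq2 1.42.0 and limma 3.58.1. The fits were also run on counts simulated from the main fit's own spread, with few changed genes and no outlying library. These data differ in both respects, so that run does not show how the fits behave here. The 8 genes and all lists were chosen with earlier results of these data known. Text names, per list and comparison, up to 3 called genes with the smallest adjusted p (the 1 smallest where none was called). By likeness it names the 5 highest correlations each for PR1 and ALD1. Other named genes (PRB1, DIR1, UGT74F1, PDF1.2B) are given as limits. Salt values of PAD4 in both genotypes, and of TGA3 and WRKY54 in the line, were added outside this rule to genes it named in other comparisons. Upstream windows of 7 genes came from the TAIR10.1 assembly, and that of the other gene is not reported here; 32532 of 32548 shared loci had the same start and end there. Depth was 17173618 to 21651124 counts a library, so genes with about 10 counts a group are imprecise. The main fit did not pair libraries by replicate number, and whether same-numbered libraries belong together is not settled. p-values measure the spread between these libraries.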

Additional observations from a re-analysis of the deposited data

Results flagged for a closer look

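The salt responses of 2 genes differed between the genotypes by the test of the difference itself. NIMIN-1 moved by 1.27 ± 0.55 in the line, which was not called (edgeR adjusted p = 0.059), and -3.11 ± 0.63 in wild type, which was. Its response in the line was called by DESeq2, with median-of-ratios scaling and without replicate 1 of the salt-treated line. The difference was 4.38 ± 0.83 (edgeR adjusted p = 0.02) and was called in 11 of 12 fits that left out a library. SARD4 moved by 1.44 ± 0.29 in the line, which was called, and -0.50 ± 0.29 in wild type, which was not (edgeR adjusted p = 0.16). The difference was 1.94 ± 0.41 (edgeR adjusted p = 0.025) but was called in 3 of those 12 fits, and SARD4 counts may include reads of the overlapping AT5G52800.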

How the results depend on the processing

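Over 21 alternative settings, 776 values of the 8 genes kept direction and side of the threshold, 15 gained a call, 35 lost one and 6 reversed. In wild type, salt called 3 of the 8 genes up with limma on log2(FPKM + 1). The same count came from limma on log2(FPKM + 0.1) and the replicate block. PR1 and FMO1 lost their calls in all of these settings. Of all tested genes limma on log2(FPKM + 1) called 3552 up and the replicate block 4504, against 4616 in the main fit. With only the 6 libraries compared, 3 of the 8 were called down, NIMIN-2 and SARD4 being added. The share of all tested genes called down there is not reported here. For the line against wild type that setting called 1 of the 8 down and 3992 genes in all without salt, and 2000 genes under salt. The interaction called 2531 genes with DESeq2, 1569 with limma on log2(FPKM + 1) and 644 with the replicate block. Of 18 same-numbered pairs of libraries, 4 correlated over 0.1 (range -0.26 to 0.26), and 7 of 12 libraries correlated best with their own number. These values have no reference to compare with and cannot settle whether the replicate numbers pair the libraries. The reversed values were all uncalled interactions: ALD1 at 0.65 with limma on log2(FPKM + 1); FMO1 (range -0.49 to 1.00) at -0.08, -0.10 and -0.49 without line salt replicate 3, line untreated replicate 3 and wild-type untreated replicate 2; PR5 (range -0.80 to 0.12) at 0.12 and 0.10 without line untreated replicate 1 and wild-type salt replicate 2. Leaving out each library in turn gave 5 to 7 genes up with salt in the line (9926 to 12126 genes in all), 3 to 5 up and 1 to 3 down in wild type (7727 to 10812), 4 to 6 up and 0 to 1 down in the line without salt (1160 to 5121), 8 to 8 up under salt (2649 to 9185) and 0 to 3 up for the interaction (129 to 6270). With only the 6 libraries compared, PR1 under salt was 4.87 (edgeR adjusted p = 0.059). Library totals alone moved the median of all genes to -0.31 with salt in the line, -0.22 in wild type, 0.10 without salt and -0.14 for the interaction, and the share of calls up without salt to 66.4%, against 52.7%; none of the 8 genes reversed. The causes were not tested. Depth limits PR1, ALD1 and FMO1 in untreated wild type, at 30, 10 and 11 counts over the group.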
